A study of Mus musculus with 2 samples.

Results

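The 8 genes described here, *G6pdx*, *Pgd*, *Idh1*, *Me1*, *Slc25a1*, *Acly*, *Acss2* and *Aacs*, supply NADPH and acetyl-CoA in the cytosol and were taken by gene symbol. Each had 1 row in both tables, so all 8 of 8 were found among 23951 symbols shared by the tables and all 8 were among the 14199 genes compared. RNA-seq was measured in P12 optic nerve, a white matter tract that is being myelinated at this age. The control mice (Tcf7l2 c/+; OLig1-cre, 1 library) carried 1 floxed *Tcf7l2* allele, and the mutants (Tcf7l2 c/c; OLig1-cre, 1 library), called *Tcf7l2*ΔHMG, carried the floxed allele on both chromosomes. Both groups therefore carried the same Cre, which is expressed in the oligodendrocyte (OL) lineage and removes the exon for the DNA-binding HMG domain, while a shortened mRNA and protein can still be made. The number of animals per library is not given in the sources used here. *Tcf7l2* itself was at 17.8 FPKM in control nerve and 14.6 FPKM in the mutant, and since this value covers the whole gene it does not check the excision.

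Cytosolic acetyl-CoA is the carbon source, and NADPH the reductant, for the synthesis of fatty acids and cholesterol, which OLs need in bulk to build myelin. Citrate leaves mitochondria through the carrier SLC25A1 and is cleaved to acetyl-CoA by ACLY, whereas ACSS2 makes acetyl-CoA from acetate and AACS activates the ketone body acetoacetate. NADPH comes from the oxidative arm of the pentose phosphate pathway (G6PDX and PGD), from NADP-dependent isocitrate dehydrogenase (IDH1) and from malic enzyme (ME1).

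The sequences that hold a match to the antioxidant element, the site through which the factor Nrf2 (gene *Nfe2l2*) acts on genes of redox metabolism, are shown for 4 of the genes, because more of the 8 genes held it than any other element searched but the Sp1 box. RefSeq promoters (GRCm38.p6, from 250 bases before to 50 bases after each start site) were found for all 8 genes, in 11 windows. Positions in this build are not those of the deposited tables (mm9) and were not joined to them. The match, TGACNNNGC on either strand, is in capitals.
*G6pdx* (chrX:74428903-74428963, minus strand, match on the opposite strand of the gene): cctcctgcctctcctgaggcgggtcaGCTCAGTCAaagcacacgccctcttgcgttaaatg
*Me1* (chr9:86695886-86695946, minus strand): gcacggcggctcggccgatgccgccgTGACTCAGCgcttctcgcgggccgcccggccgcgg
*Acss2* (chr2:155517910-155517970, plus strand): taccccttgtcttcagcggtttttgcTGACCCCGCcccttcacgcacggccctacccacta
*Aacs* (chr5:125475805-125475865, plus strand): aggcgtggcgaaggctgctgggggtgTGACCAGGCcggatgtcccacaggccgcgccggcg
The first base of the match lay at −57 from the start site in *G6pdx*, −6 in *Me1*, −107 in *Acss2* and −42 in *Aacs*. With a second start site of *Pgd*, 5 of the 8 genes and 5 of the 11 windows held this match. In *Pgd* it began at 3, past the start site, and no match was found at another start site of this gene. Of all 32851 promoter windows 12.4% held it, and of all genes with one 14.0%. The element was picked for its count among 6 searched, so setting that count against these shares is no test of enrichment. The SREBP element (TCACNCCAC, in 1.24% of all windows) and the TCF core (ATCAAAG, in 3.73%) were in none of the 11 windows. The E-box CACGTG (7.15% of windows) was in *Slc25a1*, the Sox core ACAAAG (18.7%) in *Idh1* and *Pgd*, and the Sp1 box GGGCGG (35.7%) in 7 genes, all but *Aacs*. These are matches of letters within 300 bases and were not tested for binding.

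Levels are given as FPKM, the number of fragments per kilobase of transcript and per 1000000 mapped fragments, so they can be compared between genes. The interval after each is the confidence interval of Cufflinks, which covers the sampling of reads and not differences between mice. The spacing of the interval bounds of short unnamed rows gave 27624000 mapped fragments in control nerve and 39938000 in the mutant, so that 3 fragments on 1 kb equalled 0.11 and 0.075 FPKM. The 8 genes lay far above this floor, and their intervals reached 2.50% to 7.24% to either side of the midpoint. Log2 ratios are of mutant over control after 0.1 was added to each FPKM. With 1 library per genotype no gene could be tested, and a gene is said to rise or fall only where its fold change was above 1.5. Higher, rose and rising refer to FPKM as deposited, and every log2 ratio between 0 and 0.67 turned negative when each library's total over all rows was made equal. A bulk library cannot tell fewer cells of a type from less RNA per cell.

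Of the 8 genes, *Idh1* and *Acss2* fell in the *Tcf7l2*ΔHMG library, and none rose. The background was 8.52% of compared genes falling and 15.4% rising. In all, 6 of the 8 had a lower FPKM in the mutant, where 45.4% of compared genes did. Among the 2783 compared genes with a mean FPKM between those of *G6pdx* (23.2) and *Idh1* (92.8), the lowest and highest of the 8, the shares were 8.70% falling and 48.0% lower. The median log2 ratio of the 8 genes was −0.38, beside 0.047 over all compared genes, and their summed FPKM was 457.1 in control nerve and 343.3 in the mutant. The intervals of both libraries were apart for all 8 genes, with 6 lower and 2 higher. They were also apart for 22.4% of compared genes on the lower and 30.0% on the higher side. Over both sides this was 7437 of 14199 compared genes, and 1826 of the 2783 in the range of mean FPKM of the 8 genes.

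**Figure D1:**
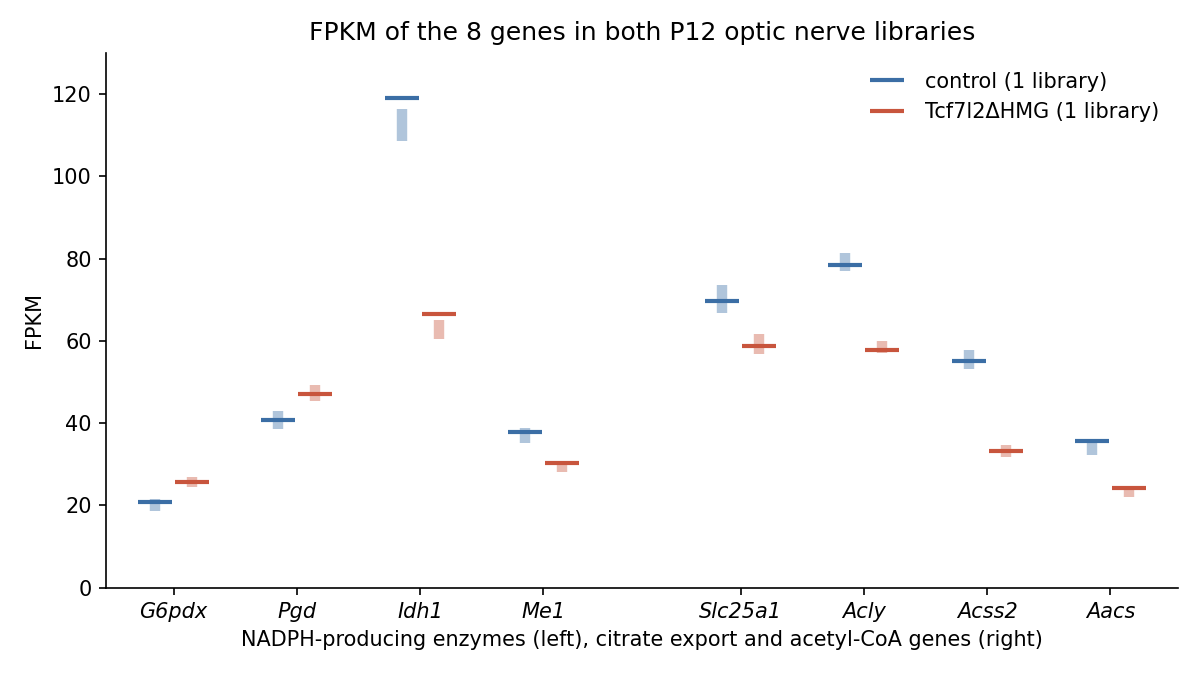
FPKM of the 8 genes in the control (blue) and *Tcf7l2*ΔHMG (red) library, with a horizontal mark for the deposited FPKM and a pale bar for its Cufflinks interval. *G6pdx* and *Pgd* were higher in the mutant as deposited, which turned once library totals over all rows were made equal, and the other 6 were lower, with *Idh1* going from 119.1 to 66.4 FPKM.

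The NADPH-producing enzymes did not move together. *Idh1*, which oxidizes isocitrate in the cytosol and peroxisomes, had the highest FPKM of the 8 genes in either library and the largest fall. It was at 119.1 FPKM in the control (interval 108.6 to 116.3) and 66.4 FPKM in the mutant (60.4 to 65.1), a log2 ratio of −0.84, and 4.94% of compared genes had a lower ratio. Its FPKM lay above its own interval in both libraries. From the midpoints of its intervals its log2 ratio was also −0.84. In the files, which the submitters' notes assign to mm9, *Idh1* lies on chromosome 1 from 65205190 to 65233053.

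*Me1*, the cytosolic malic enzyme, which turns malate into pyruvate, was lower by less than the cutoff. Its FPKM was 37.8 in the control (35.1 to 38.8) and 30.2 in the mutant (28.1 to 30.5), a log2 ratio of −0.32. A lower ratio was found for 18.6% of compared genes. *Me1* lies on chromosome 9 from 86474970 to 86589947 in the files.

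Both enzymes of the oxidative pentose phosphate pathway were higher in the mutant, below the cutoff. *G6pdx*, glucose-6-phosphate dehydrogenase, which catalyses the first and committed step, was at 20.8 FPKM in the control (18.7 to 21.6) and 25.6 FPKM in the mutant (24.4 to 26.9), a log2 ratio of 0.30. *Pgd*, 6-phosphogluconate dehydrogenase, which makes the next NADPH of the pathway, was at 40.6 FPKM in the control (38.4 to 42.9) and 47.1 FPKM in the mutant (45.3 to 49.3), a log2 ratio of 0.21. Of compared genes, 29.2% had a higher ratio than *G6pdx* and 35.4% a higher one than *Pgd*, so both lay near the middle of the distribution. Their direction depended on the scale, since equal library totals over all rows turned the ratios to −0.37 and −0.46. The files place *G6pdx* on chromosome X from 71654825 to 71674500, within the span of *Ikbkg*, and *Pgd* on chromosome 4 from 148524052 in the control file and 148524094 in the mutant file to 148540816. *Ikbkg*, at 6.98 and 5.56 FPKM, was lower in the mutant where *G6pdx* was higher.

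All 4 genes of citrate export and acetyl-CoA synthesis were lower in the mutant, with a median log2 ratio of −0.50. *Slc25a1*, the mitochondrial citrate carrier, differed least, with 69.6 FPKM in the control (66.7 to 73.5) and 58.8 FPKM in the mutant (56.9 to 61.6), a log2 ratio of −0.24. *Acly*, ATP-citrate lyase, was at 78.4 FPKM in the control (77.0 to 81.4) and 57.8 FPKM in the mutant (57.0 to 59.968), a log2 ratio of −0.44. Both stayed below the cutoff, and 23.6% and 13.1% of compared genes had a lower ratio. In the files, *Slc25a1* lies on chromosome 16 from 17925304 to 17928312 and *Acly* on chromosome 11 from 100337666 to 100389314.

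*Acss2*, which makes acetyl-CoA from acetate in the cytosol and nucleus, fell from 55.1 FPKM (53.2 to 57.7) to 33.2 FPKM (31.7 to 34.8), a log2 ratio of −0.73. Only 5.94% of compared genes had a lower ratio. *Aacs*, acetoacetyl-CoA synthetase, was just outside the cutoff, with 35.7 FPKM in the control (32.4 to 35.9) and 24.2 FPKM in the mutant (22.0 to 24.4). Its log2 ratio was −0.56 and its fold change 1.47, and it passed the cutoff after centring on the median (−0.60), with equal 75th percentiles (−0.61) and with equal totals of the named rows (−0.63). *Acss2* lies on chromosome 2 from 155343779 to 155388479, and *Aacs* on chromosome 5 from 125956243 to 125997773. Starting 437 bases beyond the end of *Acss2*, the glutathione synthetase gene *Gss* was at 33.8 FPKM in control nerve and 16.3 FPKM in the mutant (log2 ratio −1.05). It was looked up after its values had been seen. The antisense transcript *Acss2os*, which lies within *Acss2*, was listed at 0 in both libraries.

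**Figure D2:**
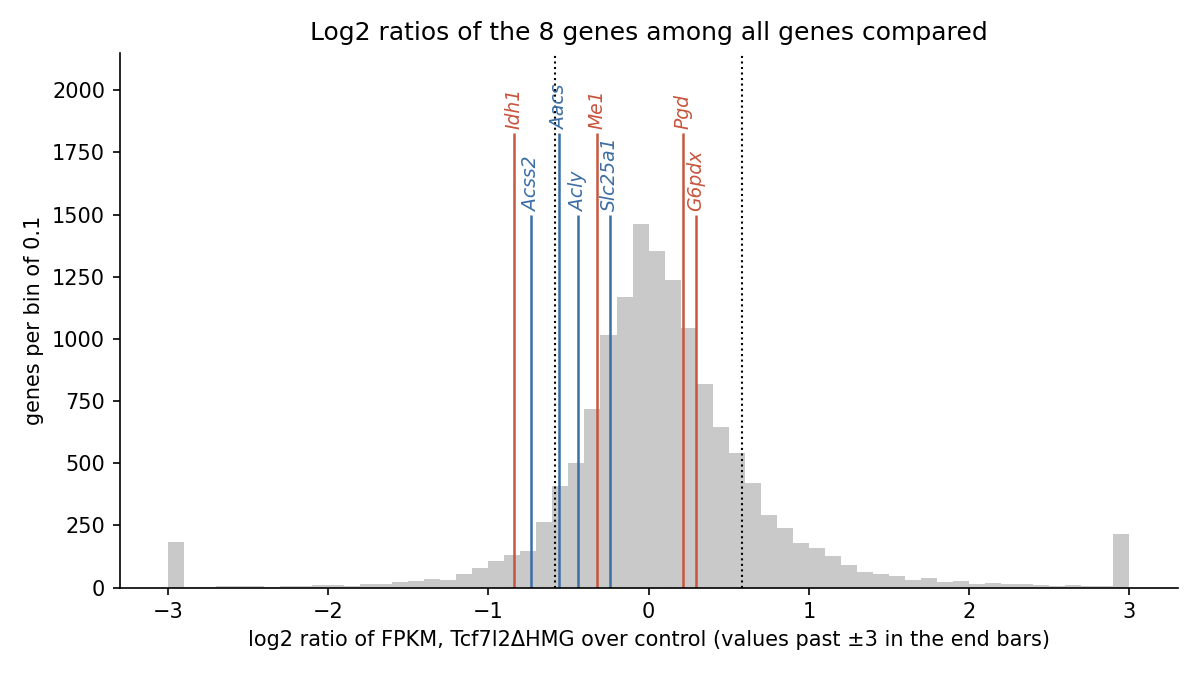
Histogram of the log2 ratio of mutant over control FPKM for 14199 compared genes in bins of 0.1, with the NADPH-producing enzymes marked in red, the citrate export and acetyl-CoA genes in blue and the fold change of 1.5 dotted. Of all genes, 388 lay past the drawn range and were put in the end bars, and *Idh1* (−0.84) and *Acss2* (−0.73) were the ones of the 8 genes past the dotted line.

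The order of the 8 genes within a library does not depend on how the libraries are scaled to each other. In the control it ran from *Idh1* through *Acly*, *Slc25a1*, *Acss2*, *Pgd*, *Me1* and *Aacs* to *G6pdx*, and the intervals of *Pgd* and *Me1* and of *Me1* and *Aacs* overlapped. In the mutant it was *Idh1*, *Slc25a1*, *Acly*, *Pgd*, *Acss2*, *Me1*, *G6pdx* and *Aacs*, and the intervals of *Idh1* and *Slc25a1* and of *Slc25a1* and *Acly* overlapped. *Pgd* thus passed *Acss2*, and *G6pdx* went from the lowest place to just above *Aacs*. Among all compared genes, *Idh1* was above 95.6% of genes by FPKM in control nerve and 91.3% in the mutant. *Acss2* was above 89.8% and 81.8%, and *Aacs* above 83.4% and 75.5%. *G6pdx* was above 72.8% in control nerve and 76.8% in the mutant, and *Pgd* above 85.8% and 87.6%.

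Ratios between genes within 1 library also need no scaling between libraries. Of 10 such ratios, several of which share a gene, 8 were lower in the mutant, and 6 when taken from interval midpoints. *Idh1* was at 2.03 times the FPKM of its mitochondrial counterpart *Idh2* in control nerve and 0.726 times in the mutant, so that *Idh2* became the higher of the pair. The interval of *Idh2* in the control ran from 49.0 to 14105.2 FPKM and gives no usable bound for this ratio. The ratio of *Acss2* to the mitochondrial *Acss1* was 9.83 in control nerve and 5.32 in the mutant, and its ranges from the interval bounds were apart (8.63 to 11.5 and 4.63 to 6.25). *Me1* was at 1.42 and 1.16 times the level of the mitochondrial *Me2*, with ranges that were apart, and at 27.6 and 17.3 times that of *Me3*, whose own FPKM was under 2 in both libraries.

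Within the route itself, *Acly* was at 1.13 times the FPKM of *Slc25a1* in control nerve and 0.984 times in the mutant, with overlapping ranges. It was at 1.17 and 0.846 times the level of *Cs*, the mitochondrial citrate synthase, with ranges that were apart, although the FPKM ratio in the control lay just below its own range of 1.18 to 1.34. *Acly* over *Acss2* was higher in the mutant, at 1.42 and 1.74 with ranges apart. *Aacs* over *Oxct1*, which uses acetoacetate in mitochondria, was 0.498 and 0.369 with ranges apart. The ratio of *G6pdx* to *Pgd* was 0.512 and 0.543 and that of *G6pdx* to *H6pd*, its counterpart of the endoplasmic reticulum, 4.68 and 4.58, with overlapping ranges for both.

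**Figure D3:**
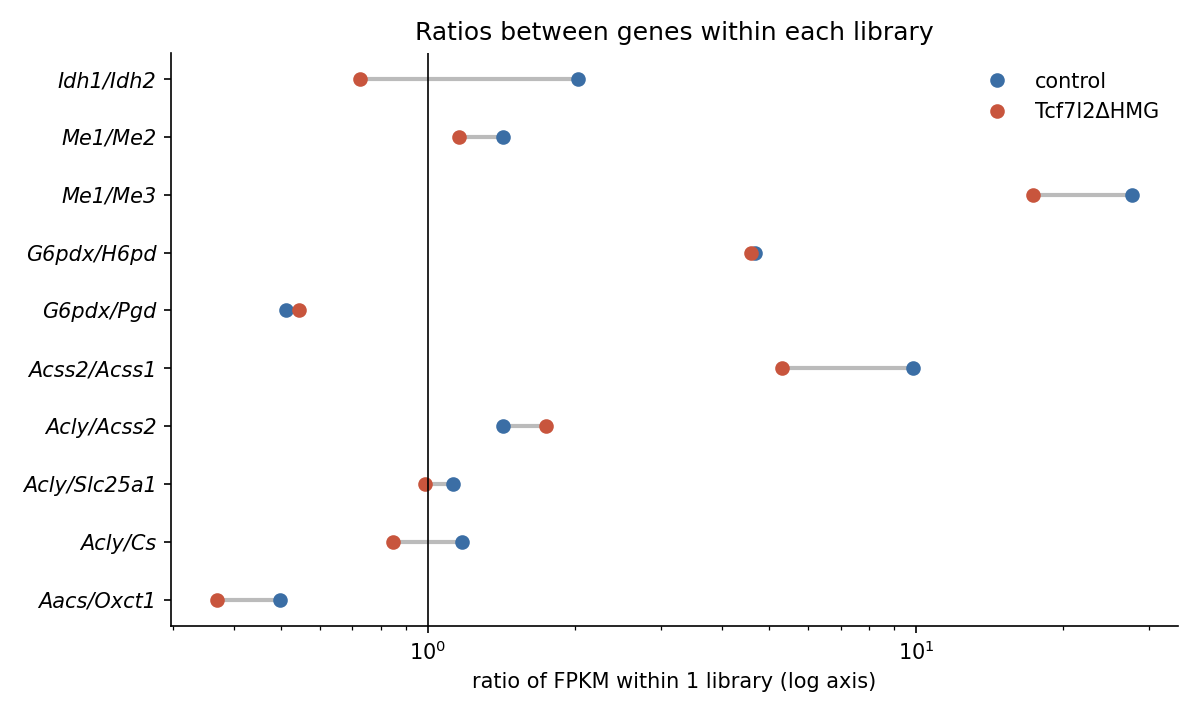
Ratio of FPKM between pairs of genes within the control (blue) and the *Tcf7l2*ΔHMG (red) library on a log axis, 1 point per library. *Idh1* over *Idh2* crossed 1, from 2.03 to 0.726, whereas *G6pdx* over *H6pd* was 4.68 and 4.58.

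Other genes of the same metabolism were taken from 9 lists. In the rest of the pentose phosphate pathway, none of 9 genes passed the cutoff and 7 were lower, with a median log2 ratio of −0.11. *Taldo1*, transaldolase of the non-oxidative arm, was at 265.8 FPKM in control nerve and 192.1 in the mutant (−0.47), and its FPKM lay above its interval in both libraries. *Tkt*, transketolase, whose rows also held *Mir3076*, had a log2 ratio of −0.16. *Pgls*, which acts between *G6pdx* and *Pgd*, was at 39.8 and 51.0 FPKM, but its mutant row was merged with *Fam129c*, so that these values are not of the same row.

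Another list held 12 NADP-linked enzymes, NAD kinases and their relatives. Of these, *Idh2* rose from 58.7 to 91.5 FPKM (0.64) and *Nadk2*, the mitochondrial NAD kinase, from 8.77 to 21.6 FPKM (1.29). The control interval of *Idh2*, 49.0 to 14105.2 FPKM, overlapped that of the mutant, and with equal totals of the named rows its log2 ratio was 0.57, below the cutoff. The mutant row of *Nadk2* was merged with *Ranbp3l*, and without genes merged in 1 library *Idh2* alone of 11 passed. None fell, and the median was 0.073. *Aldh1l1*, a folate enzyme that makes NADPH and marks astrocytes, was at 65.5 and 69.4 FPKM, and *Nadk*, the cytosolic NAD kinase, at 32.7 and 41.1 FPKM.

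The mitochondrial genes upstream of citrate export showed no call. None of 15 genes that make mitochondrial acetyl-CoA and citrate passed the cutoff, with a median of 0.041 and a range of −0.15 to 0.50. *Mdh2*, mitochondrial malate dehydrogenase, was at 133.6 FPKM in control nerve and 132.3 in the mutant, and the pyruvate carrier subunit *Mpc1* at 114.0 and 120.0 FPKM. Of 7 compared genes that handle citrate and malate outside the matrix, none passed either (median 0.025), among them *Mdh1* (0.24), *Slc25a11* (0.18) and *Aco1* (−0.28).

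Genes of ketone body and acetate use went both ways. *Acat2*, cytosolic acetoacetyl-CoA thiolase, which acts after acetyl-CoA is formed, fell from 73.1 to 44.1 FPKM (−0.73). *Slc13a3*, a dicarboxylate carrier that also takes up N-acetylaspartate, rose from 26.9 to 54.5 FPKM (1.02), with its mutant FPKM above its interval. In all, 1 of the 10 genes fell and 3 rose. *Slc16a1*, which carries lactate and ketone bodies, and *Oxct1* were lower by less than the cutoff (−0.33 and −0.13). With the 5 of 10 genes whose FPKM lay within its interval in both libraries, none fell and 1 rose. The median over the list was −0.073.

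**Figure D4:**
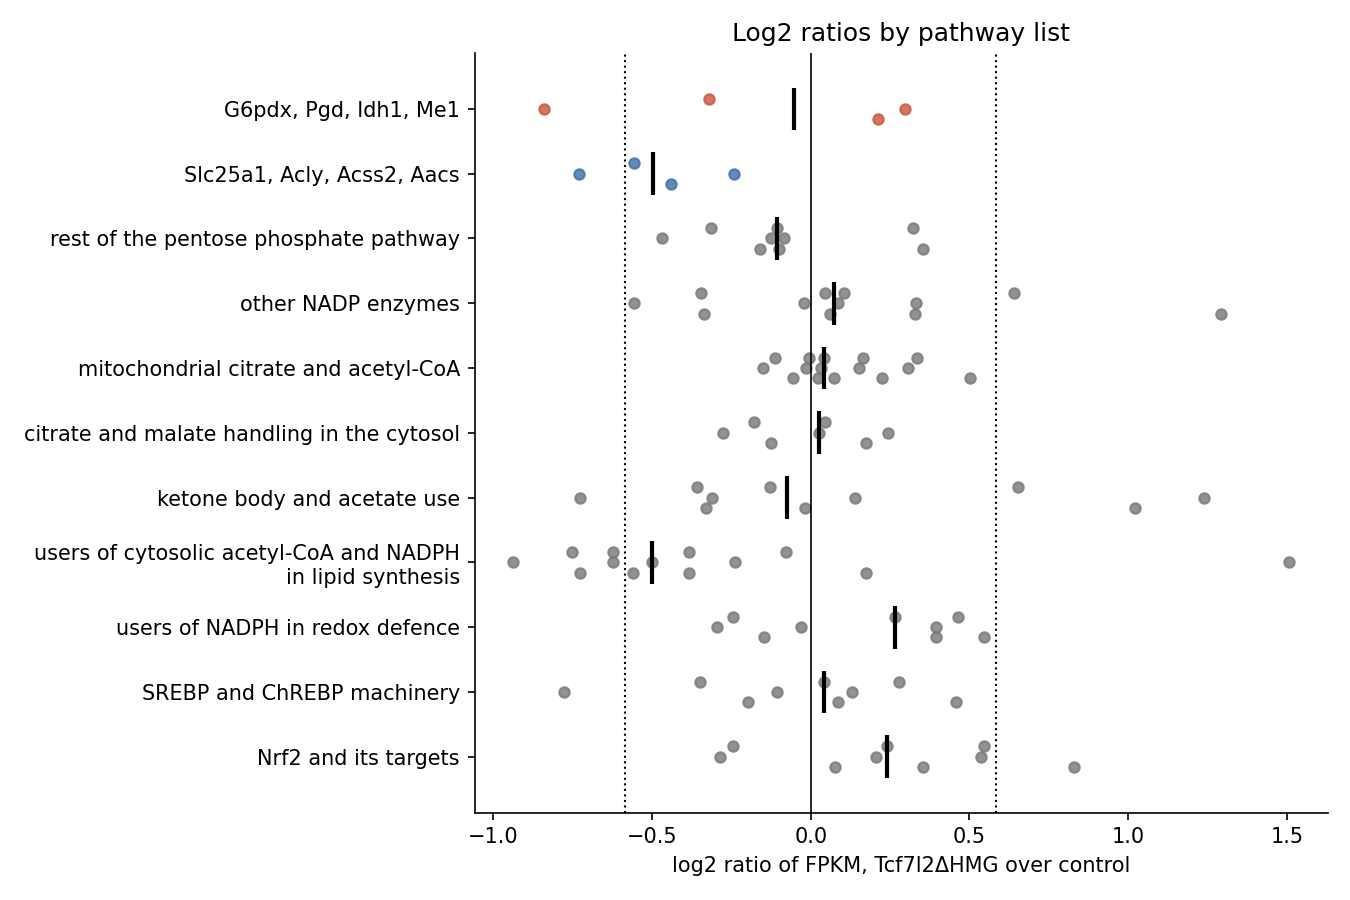
Log2 ratio of mutant over control FPKM for each tested gene of the pathway lists, 1 point per gene, with the list's median as a black bar and the fold change of 1.5 dotted. *Slc25a1*, *Acly*, *Acss2* and *Aacs* (median −0.50) lie left of 0. Enzymes of lipid-synthesis pathways, labelled as users of acetyl-CoA and NADPH (median −0.50), lie mostly left of 0, and the mitochondrial list (median 0.041) around 0.

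Among 13 enzymes of lipid-synthesis pathways that draw on cytosolic acetyl-CoA or NADPH, 5 fell and 1 rose, with a median of −0.50. The study named several of its cholesterol genes from these same libraries, so the list is not independent evidence of a direction. The fatty acid elongase *Elovl6* fell from 49.7 to 30.0 FPKM (−0.73). *Sqle* and *Elovl1* fell too (log2 ratio −0.62 each). *Hmgcs1* (−0.50) and the desaturase *Scd2* (−0.38, in merged rows) were among the genes with the highest FPKM of the list and did not pass. The FPKM of *Hmgcs1* lay just below its interval in both libraries. *Scd2* lay below its interval in the control (900.8, interval 907.5 to 1655.6) and above it in the mutant (690.7, interval 673.5 to 683.2). Its intervals thus lie further apart than its FPKM values. *Kdsr*, a reductase of sphingolipid synthesis, rose from 5.09 to 14.6 FPKM (1.51). Only 6 of the 13 had FPKM within the interval in both libraries, and of these 2 fell and 1 rose, with a median of −0.16.

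None of 9 compared genes of redox pathways that draw on NADPH passed the cutoff. Their median was 0.27, and −0.15 over the 5 whose FPKM lay within the interval, so the list has no stable sign. *Prdx1* was at 185.1 FPKM in control nerve and 167.0 in the mutant, *Akr1b3*, in a row shared with *Gm6644*, at 51.0 and 70.3 FPKM, and *Cat*, catalase, at 49.1 and 48.1 FPKM.

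The regulators were mixed. Of 9 genes of the SREBP and ChREBP machinery, *Insig1*, which retains SREBP in the endoplasmic reticulum and is itself a target of it, fell from 71.3 to 41.6 FPKM (−0.78), and no other passed (median 0.040). *Srebf2*, which encodes the main activator of cholesterol genes, was at 62.3 and 54.3 FPKM (−0.20) and *Srebf1*, the activator of fatty acid genes, at 46.8 and 56.7 FPKM (0.28). Of 9 genes of the Nrf2 list, *Nfe2l2* rose from 20.9 to 37.2 FPKM (0.83), with its mutant FPKM above its interval of 33.2 to 36.7. No other passed, and the median was 0.24. The cystine transporter *Slc7a11* was at 34.0 and 39.2 FPKM, and *Txnrd1*, thioredoxin reductase, at 19.9 and 16.8 FPKM.

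Markers of cell types also differed between the libraries. All 10 markers of myelinating OLs were lower in the mutant, 8 of them past the cutoff, with a median log2 ratio of −1.07, a range of −2.04 to −0.36 and a summed FPKM of 15021 in control nerve and 6651 in the mutant. None of the 8 metabolic genes was as low as that median. *Idh1* (−0.84) lay below the markers *Opalin* (−0.83), *Cnp* (−0.81), *Mog* (−0.55) and *Aspa* (−0.36) and above the others of that list. OL precursor markers had a median of −0.24 (1 of 5 fell, summed FPKM 375.8 and 303.2). Astrocyte markers had a median of 0.27 (7 of 8 higher and 1 past the cutoff, 5116 and 6048 FPKM), fibroblast markers 0.39 (5 of 5 higher and 1 past the cutoff, 1046 and 1376 FPKM), and microglial markers 0.15 (0 of 6 past the cutoff, 103.3 and 119.5 FPKM), medians that all turned negative with equal totals over all rows. Endothelial markers had a median of −0.28 (1 of 5 fell and 1 rose, 117.0 and 102.4 FPKM). Neuronal markers (3 of 3 compared rose, with 7.86 and 15.97 FPKM summed over all 4 listed) and red blood cell markers (3 of 3 rose, 133.1 and 333.7 FPKM) were higher in the mutant. Of these, *Rbfox3* (0.66 and 1.51 FPKM) and *Alas2* (0.61 and 1.39 FPKM) reached the minimum FPKM only in the mutant, so the filter favoured their rise. With equal totals over all rows, *Syt1* and *Hba-a1* (log2 ratio 0.69) stayed past the cutoff. *Rbfox3* (0.42), *Snap25* (0.12), *Hbb-b1* (0.58) and *Alas2* (0.41) did not. Adipocyte markers, taken because fat also makes lipid from cytosolic acetyl-CoA, summed to 0.12 FPKM in control nerve and 0.13 FPKM in the mutant, with *Lep* listed at 0 in both. The part of the makeup of the tissue in the difference of each gene was not tested.

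The scale between the libraries set how far these values can be read. Rows without a gene name held 70.7% of all FPKM in control nerve and 80.7% in the mutant, so that equal totals over all rows shifted every log2 ratio by −0.67. Under it 54.4% of compared genes fell and 3.67% rose, and the rise of *Idh2* (0.64) was among those that turned. Relative to the median of compared genes, which this moved to −0.63, *G6pdx* and *Pgd* stayed above and the other 6 genes below. A scaling moves all genes and their median nearly alike, so a gene's side of the median could hardly change. Setting the named rows, the 75th percentiles or the medians equal moved the ratios by −0.070, −0.049 and −0.047.

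**Figure D5:**
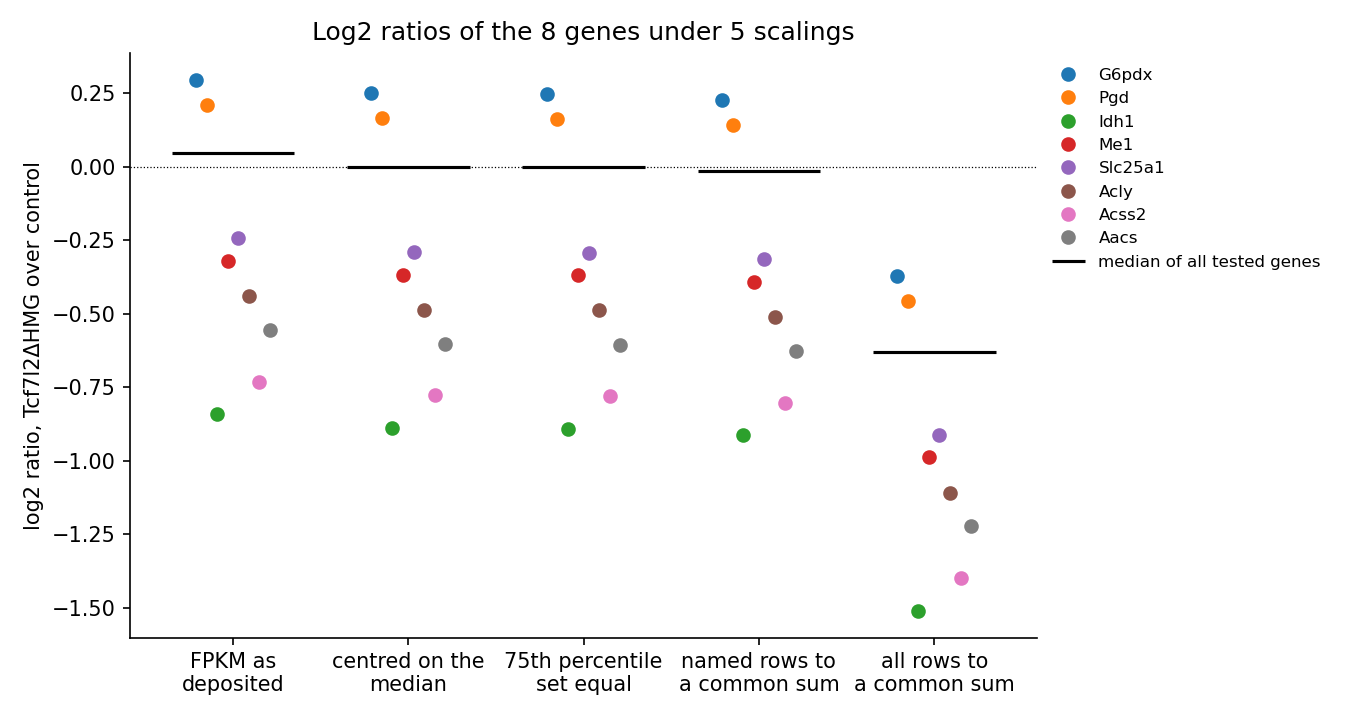
Log2 ratios of the 8 genes under 5 scalings of the libraries, 1 point per gene, with the median of all compared genes as a black line. *G6pdx* and *Pgd* lie above that line and the other 6 genes below it in every column. A scaling moves all genes and the line nearly alike, so a gene's side of it could hardly change. The ratios of *G6pdx* and *Pgd* are above 0 in 4 columns and at −0.37 and −0.46 with equal totals over all rows.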

How the data were processed

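RNA was extracted from P12 optic nerves with trizol and sequenced on an Illumina HiSeq. Reads were aligned with TopHat at its defaults, and the authors deposited FPKM from Cufflinks for 1 library per genotype, with a confidence interval and a status for each row. The submitters' processing notes name mm9, and versions are not given in the sources used here. The kit's strand setting is not given either, so sense and antisense reads cannot be told apart.

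Names joined by commas were split, each name received the FPKM of its row, and rows were summed per symbol. Genes were compared by fold change where the status was OK in each library and the FPKM reached 1 in either. The log2 ratio used a pseudocount of 0.1, and the cutoff was the fold change of 1.5 that the study used. Start positions are counted from 1. Depth was read from unnamed rows under 100 bases, whose interval bounds were whole multiples of 1 fragment within 0.01 for 99.5% of bounds in the control and 99.7% in the mutant. Each library is a single sample, so there is no replicate error and no p-value. Besides the 8 genes, the 3 genes with the highest mean FPKM of each list, genes past the cutoff and genes of 10 fixed ratios are named. Some genes that this rule takes are counted in their lists but not reported here by name. The 8 genes, the lists and the ratios were chosen with earlier results of these data known. Motif letters were searched on both strands. The counting was tested on simulated data. Python 3.11.15, numpy 2.4.6, pandas 2.3.3 and matplotlib 3.10.9 were used.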

Additional observations from a re-analysis of the deposited data

Results flagged for a closer look

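In total, 3 unnamed rows within 3000 bases of *Pgd*, *Acss2* and *G6pdx* were listed in the *Tcf7l2*ΔHMG library and not in the control. The control library in turn listed 1 such row that the mutant did not, of 538 bases at 1.30 FPKM and 516 bases from *Aacs*. A row of 151 bases within *Pgd* was listed at 25.1 FPKM, above its own interval of 0.83 to 3.98 FPKM. A row of 124 bases, 2224 bases beyond *Acss2* and within *Gss*, was listed at 60.3 FPKM, above its interval of 1.21 to 4.64 FPKM. A row of 919 bases, 766 bases from *G6pdx*, was listed at 0.67 FPKM. The cause of these rows was not tested.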

How the results depend on the processing

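No gene has a replicate check, since there was 1 library per genotype, and no replicate could be left out. No paired analysis was possible because each group held 1 library. Alternatives used a pseudocount of 1 or 0.01, no filter, a minimum FPKM of 1 in each library or 5 in either, 4 other scalings, the highest row per symbol, merged names not split, rows of any status, a fold change above 2, a demand for intervals that are apart and, chosen after seeing the data, midpoints of the intervals. After all rows were rescaled to a sum of 1000000, 6 of the 8 genes fell, the median log2 ratio was −1.05, and *G6pdx* (−0.37) and *Pgd* (−0.46) turned. With a fold change above 2, 0 of the 8 fell, where 3.68% of compared genes did. Under the other 13 alternatives 2 or 3 genes fell and none rose. Under the other 12 that recompute the median it stayed between −0.45 and −0.37. Of these, the changes of filter, the highest row per symbol, names not split and rows of any status could not alter the 8 genes. Each had 1 unmerged row and at least 20.8 FPKM, so these settings are no check on their values. Of the 10 ratios within a library, 6 to 8 were lower in the mutant under 5 alternatives, the lowest count with midpoints of intervals.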
